A study of Homo sapiens with 12 samples.

Results

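Ion channels that respond to voltage, together with the wider potassium channel family, were taken from the RNA-Seq count table by gene symbol. The list holds every KCN gene with a family letter and number (potassium channels and their subunits), SCN genes of the A and B series (voltage-gated sodium channels), and CACNA, CACNB and CACNG genes (voltage-gated calcium channels) whose symbol ends in digits or the letters A to D. Of the 14438 genes in the table, 64 were members, and 61 of them could be tested in all lines. Calcium channel pores with later letters, such as CACNA1G and CACNA1H, fall outside this symbol rule and are described with the partner genes.

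RNA was sequenced from HEK293T cells, a human embryonic kidney line, after lentiviral delivery of EZH2 in 1 of 4 forms, namely WT, Y641F, A677G and the double mutant H689A/F667I. The study treats Y641F and A677G as gain of function (GOF) and H689A/F667I as loss of function (LOF). All 4 lines, WT included, carry introduced EZH2 beside the endogenous gene and passed blasticidin selection, and each genotype is 1 line. Each line has 3 biological replicates, so the tests measure the spread between replicates of 1 line and not between independently made lines.

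EZH2 is the catalytic subunit of Polycomb repressive complex PRC2, which methylates lysine 27 of histone H3, a mark found at silenced genes. Voltage-gated channels open when the membrane depolarizes. Sodium and calcium channels then carry inward current, and voltage-gated potassium channels repolarize the cell. Tandem-pore (KCNK) channels leak potassium at rest, inward rectifiers (KCNJ) hold the resting potential, and auxiliary subunits set the gating, trafficking and surface number of the pores. HEK293T cells have few currents of their own and for that reason are widely used to express cloned channels, so most genes of these families are at low levels in them.

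Counts per sample summed to between 32137700 and 44562413, and channel genes took 0.0326% to 0.0384% of them. EZH2 expression, which counts the introduced and the endogenous transcript together, was 158 CPM in WT, 218 in Y641F, 173 in A677G and 208 in H689A/F667I. Here CPM is a gene's count scaled to a common library size after TMM normalization, which offsets differences in library composition. Of 9 markers chosen for HEK293T, 8 were in the table, 7 of them over 1 CPM in every sample. Their summed level ranged from 770 to 794 CPM in WT, 653 to 685 in Y641F, 626 to 657 in A677G and 703 to 726 in H689A/F667I, and most of that difference was in the neurofilament genes NEFL and NEFM. Of 7 blood markers 1 was in the table, and of 4 muscle markers none was. Of 5 neuronal markers 3 were in the table, with a summed level of 15.8 to 21.2 CPM. The part of these differences in the results for channel genes was not tested. On the principal component with the most variance over all genes, Y641F replicate 1 scored 5.60 and the other GOF samples 15.2 to 17.7, so counts for Y641F are also given without it. In bulk RNA, fewer expressing cells and less RNA per cell cannot be told apart.

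Levels were compared between genes per kilobase of annotated exon, averaged over the 12 samples (SD, n = 12). The highest was the inward rectifier KCNJ8, the pore of vascular-type ATP-sensitive channels, at 9.92 ± 0.609 CPM per kilobase. Among calcium channel subunits the highest was CACNA2D1, an alpha2delta subunit that raises the number of calcium channels at the surface, at 4.62 ± 0.203. Among voltage-gated potassium genes the leading pair were KCNG3 at 3.77 ± 0.386 and KCNG1 at 3.64 ± 0.593, both silent subunits that conduct only together with other pores. Their order differed between lines: KCNG1 was the higher one in WT (4.20 against 3.49) and H689A/F667I (4.07 against 3.43), and over all samples when the longest transcript was taken as the length, and KCNG3 in Y641F (4.10 against 3.25) and A677G (4.07 against 3.03). The highest tandem-pore gene was KCNK5, an acid-sensitive leak channel of kidney epithelium, at 3.16 ± 0.474, and the highest potassium auxiliary gene was KCNMB4, a beta subunit of calcium-activated BK channels, at 3.02 ± 0.290.

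Other roles lay lower on the scale of CPM per kilobase. The small-conductance calcium-activated channel KCNN1 stood at 1.00 ± 0.124 and the calcium channel beta subunit CACNB3 at 0.761 ± 0.0943. CACNG8, the only gene of the table named as a gamma subunit, stood at 0.484 ± 0.0824. The highest calcium channel pore of the list by exon length, CACNA1B of the neuronal N-type channel, stood at 0.145 ± 0.0406. CACNA1H, a calcium pore outside the list, had line means of 43.6 to 49.1 CPM, where CACNA1B averaged 1.44 CPM. The sodium channel beta subunit SCN4B averaged 0.158 ± 0.0724, with its highest mean in H689A/F667I (0.252), whereas SCN2B was above it in WT (0.192 against 0.151) and in Y641F (0.149 against 0.110). Each of the 8 genes grouped by symbol as auxiliary calcium channel subunits was higher per length than each of the 3 calcium pores of the list. That comparison leaves out the calcium pores outside the list. KCNJ12, in the 2nd place overall with 4.90 ± 0.421, has a near-identical copy, KCNJ18, and how reads were divided between them is not known.

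**Figure D1:**
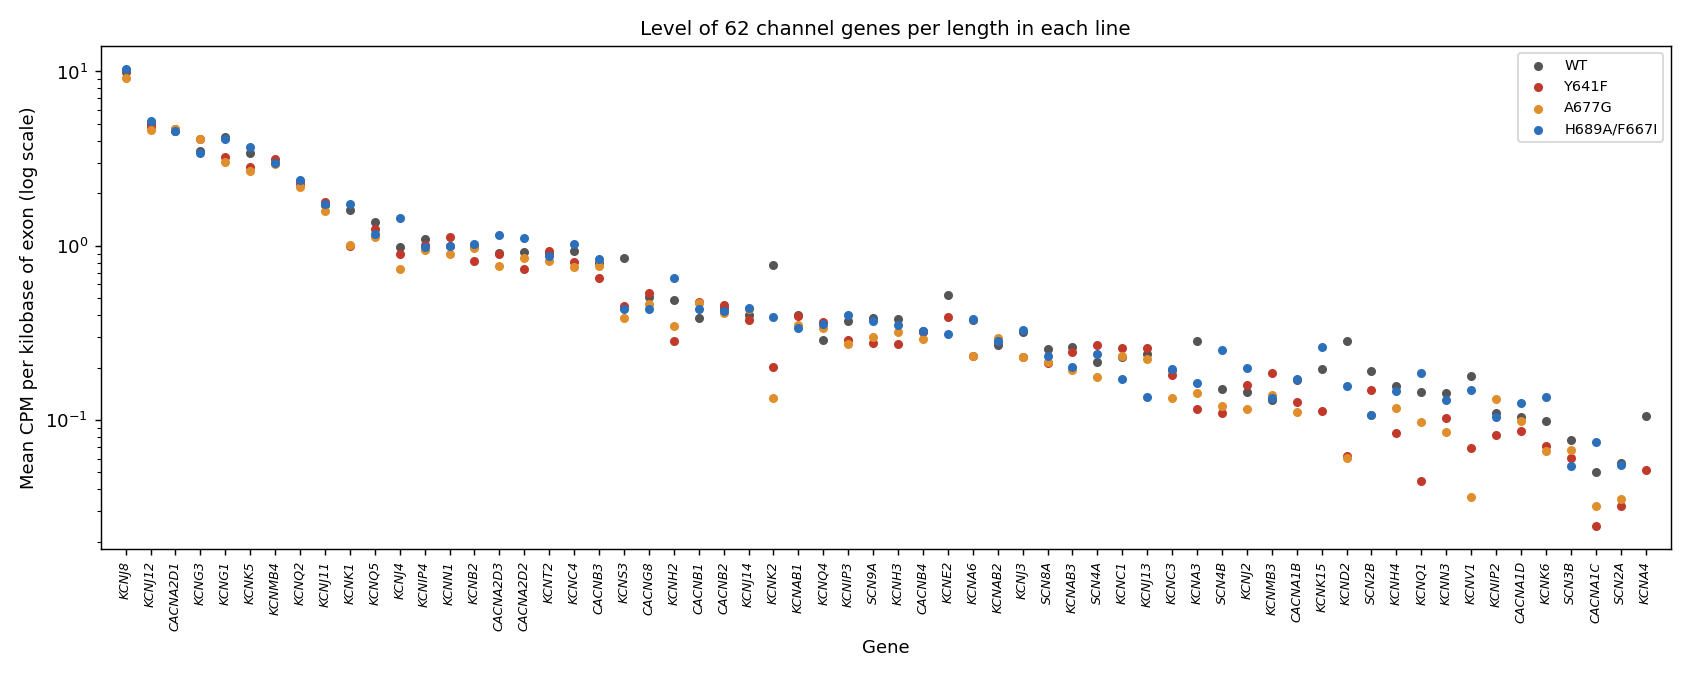
Mean CPM per kilobase of annotated exon (log scale) of 62 channel genes, in descending order, with 1 point per line (3 samples each). KCNJ8 is highest at 9.92 on average, and for KCNK2 the WT point lies above those of all 3 mutants. Lines in which all samples have 0 counts have no point.

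KCNA4, KCNE2 and KCNK15 were left out of the tests because at least 1 line had 0 counts in all of its samples. KCNA4, a pore of fast inactivating current, had 19, 22 and 8 counts in WT and 18, 5 and 4 in Y641F, but 0 in every sample of A677G and of H689A/F667I. KCNE2, an auxiliary subunit of several potassium pores, had 14, 31 and 16 counts in WT, 34, 13 and 4 in Y641F and 6, 8 and 20 in H689A/F667I, and 0 in A677G. KCNK15 had 18, 23 and 13 counts in WT, 10, 17 and 7 in Y641F and 22, 26 and 23 in H689A/F667I, and 0 in A677G. Such zeros came for whole lines: 134 genes of the table had 0 counts in all 3 A677G replicates and 100 in all 3 H689A/F667I replicates, while 0 genes had 0 counts in 2 of 3 replicates of any line. How these zeros arose was not tested, and no fold change is given for them.

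Each mutant was compared with WT to ask whether channel expression differs between cells with GOF, LOF and WT EZH2. Counts were fitted by edgeR's quasi-likelihood test over all 14263 genes tested, and a gene counted as changed below a Benjamini-Hochberg adjusted p of 0.05. In Y641F 11 of 61 channel genes fell, against 5.59% of all genes, and 0 rose, against 2.09%. In A677G 12 fell, against 6.48% of all genes, and 0 rose, against 2.07%. In H689A/F667I 1 fell, against 0.161%, and 0 rose, against 0.14%. The median log2 fold change of the 61 genes was -0.26 in Y641F, -0.28 in A677G and 0.01 in H689A/F667I, where the median of all genes was 0.00 in each. At an unadjusted p under 0.05, 1 channel gene was higher in Y641F, 1 in A677G and 4 in H689A/F667I, where 7.85%, 8.13% and 4.20% of all genes were, and 0 channel genes were called higher in each by DESeq2, by limma voom or by the exact test of edgeR. Of all genes those tests called 1.87% to 2.54% higher in Y641F, 2.35% to 4.05% in A677G and 0.21% to 0.308% in H689A/F667I. These 3 comparisons share the WT samples.

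With Y641F replicate 1 left out, 12 channel genes fell in Y641F, against 6.61% of all genes in that fit. Without WT replicate 2, 7 fell in A677G, against 4.79% of all genes, and KCNG3 was higher in Y641F (log2 fold change 0.32, adjusted p = 0.0408) and in A677G (0.31, 0.0446). Calls were found at low and at high levels. Of the 21 channel genes with the lowest counts, 5 fell in Y641F, where 6.81% of the 1747 genes in the same range of levels did. Of the 20 with middle counts 3 fell, against 10.1% of genes in that range, and of the 20 with the highest counts 3, against 4.73%. In A677G the counts were 3, 3 and 6, against 7.50%, 12.5% and 5.44%.

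**Figure D2:**
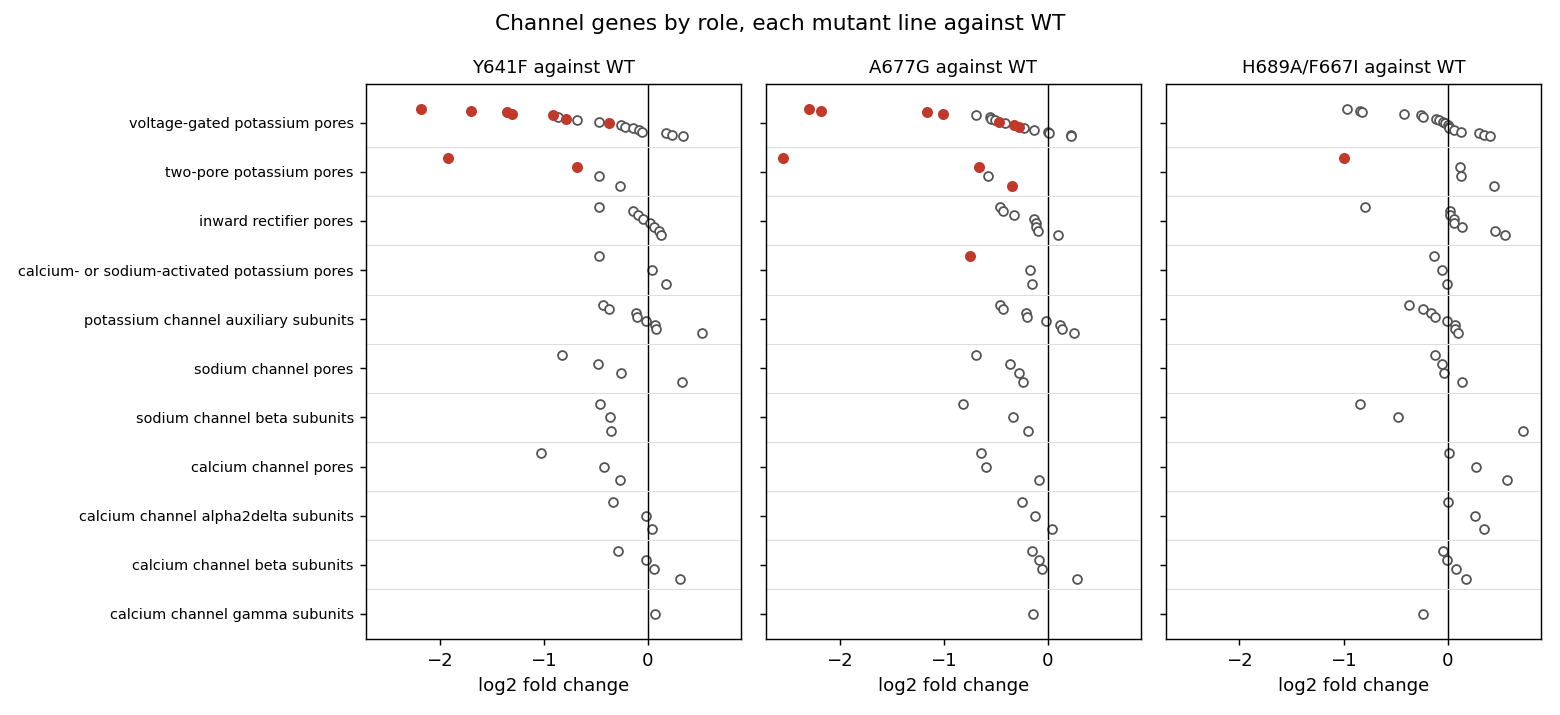
Log2 fold change of 59 of the tested channel genes against WT in Y641F (left), A677G (middle) and H689A/F667I (right), by the role of the encoded protein, 1 point per gene. Filled points passed an adjusted p of 0.05, and they number 9, 11 and 1, all to the left of 0.

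Of the 4 tandem-pore genes tested, 2 fell in Y641F, against 5.59% of all genes, and 3 in A677G, against 6.48%. The member with the smallest adjusted p of the whole list was KCNK2 (ENSG00000082482.14, chromosome 1, 215005775 to 215237090, plus strand, GRCh38), which encodes a mechanosensitive and lipid-sensitive leak channel. RefSeq gives it 2 starts in its window table, and the 250 bases before each are printed with every CG dinucleotide, the substrate of DNA methylation, in capitals because CG-rich promoters are where PRC2 is known to bind in mammals. Those before the upstream start (GRCh38.p14, chr1:215005292-215005541, plus strand) held 4 CG and those before the downstream start (chr1:215082487-215082736, plus strand) held 8.
KCNK2 upstream start: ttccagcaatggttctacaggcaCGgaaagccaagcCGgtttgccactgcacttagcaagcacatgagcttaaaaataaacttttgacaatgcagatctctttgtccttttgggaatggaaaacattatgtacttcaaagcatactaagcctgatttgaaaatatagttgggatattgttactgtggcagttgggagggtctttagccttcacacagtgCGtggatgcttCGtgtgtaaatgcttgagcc
KCNK2 downstream start: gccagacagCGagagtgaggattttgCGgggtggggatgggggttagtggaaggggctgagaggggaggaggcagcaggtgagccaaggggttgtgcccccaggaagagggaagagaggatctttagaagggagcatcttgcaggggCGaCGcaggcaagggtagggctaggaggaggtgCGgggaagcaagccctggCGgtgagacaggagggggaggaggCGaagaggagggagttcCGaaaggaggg

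Expression of KCNK2 in replicates 1, 2 and 3 was 3.84, 3.29 and 2.81 CPM in WT, 1.02, 0.735 and 0.851 in Y641F, 0.606, 0.393 and 0.713 in A677G, and 1.46, 1.71 and 1.83 in H689A/F667I. Of all genes, 11.7% had every Y641F sample below every WT sample, 14.7% every A677G sample and 7.14% every H689A/F667I sample. For KCNK2 every mutant sample was below every WT sample, with the GOF samples lowest. The log2 fold change against WT was -1.92 (SE 0.246, edgeR adjusted p = 7.19e-07) in Y641F, a level 3.79-fold lower, and -2.54 (SE 0.261, edgeR adjusted p = 6.78e-09) in A677G, 5.81-fold lower. In H689A/F667I it was -0.99 (SE 0.231, edgeR adjusted p = 0.0443). That call in H689A/F667I was lost in each of the 6 fits that left out a replicate, with adjusted p of 0.412 without WT replicate 1, 0.160 without WT replicate 2, 0.0575 without WT replicate 3, 0.335 without H689A/F667I replicate 1, 0.195 without H689A/F667I replicate 2 and 0.0957 without H689A/F667I replicate 3. In the GOF lines KCNK2 stayed past the threshold in every such fit.

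KCNK1 (ENSG00000135750.15, chromosome 1, 233614106 to 233672514, plus strand) encodes a leak channel with very small currents. The 250 bases before its start (chr1:233613856-233614105, plus strand) held 30 CG, many more than those of KCNK2, and are shown for that contrast.
KCNK1: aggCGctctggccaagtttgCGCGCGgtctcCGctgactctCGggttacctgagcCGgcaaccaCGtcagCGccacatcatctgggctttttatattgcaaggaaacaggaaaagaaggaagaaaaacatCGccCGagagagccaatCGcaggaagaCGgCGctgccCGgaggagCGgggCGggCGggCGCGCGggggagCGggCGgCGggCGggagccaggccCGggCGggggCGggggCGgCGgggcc

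Expression of KCNK1 was 5.90, 5.33 and 5.67 CPM in WT, 3.52, 3.62 and 3.41 in Y641F, 3.52, 3.83 and 3.35 in A677G, and 6.98, 4.76 and 6.70 in H689A/F667I. The GOF samples lay together below all WT and H689A/F667I samples, which overlapped each other. Against WT this was a log2 fold change of -0.68 (SE 0.147, edgeR adjusted p = 0.00185) in Y641F and -0.66 (SE 0.147, edgeR adjusted p = 0.00233) in A677G, or 1.60-fold and 1.58-fold lower. In H689A/F667I it was 0.12 (SE 0.142, edgeR adjusted p = 0.871), with a 95% interval of -0.16 to 0.41.

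KCNK5 (ENSG00000164626.9, chromosome 6, 39188971 to 39229475, minus strand), named above as the most abundant leak channel per length, was at 14.2, 12.9 and 11.7 CPM in WT, 10.7, 11.1 and 10.3 in Y641F, 11.2, 9.49 and 9.79 in A677G, and 13.2, 14.2 and 14.6 in H689A/F667I. All GOF samples were below all WT and all H689A/F667I samples, by a small margin. Against WT, KCNK5 had a log2 fold change of -0.34 (SE 0.0947, edgeR adjusted p = 0.0156) in A677G and -0.27 (SE 0.0943, edgeR adjusted p = 0.0725) in Y641F, which missed the threshold. In A677G the adjusted p rose to 0.136 without WT replicate 1, 0.0507 without WT replicate 2, 0.105 without A677G replicate 2 and 0.0692 without A677G replicate 3. KCNK6, a further leak channel, was at 0.612 ± 0.104 CPM in WT, 0.436 ± 0.243 in Y641F, 0.407 ± 0.0775 in A677G and 0.832 ± 0.111 in H689A/F667I (SD, n = 3), and neither GOF line passed against WT, with -0.47 (SE 0.383, edgeR adjusted p = 0.563) in Y641F and -0.57 (SE 0.388, edgeR adjusted p = 0.451) in A677G.

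Of the 18 voltage-gated potassium pores tested, 7 fell in Y641F, against 5.59% of all genes, and 7 in A677G, against 6.48%. KCND2 (ENSG00000184408.10, chromosome 7, 120273175 to 120750337, plus strand) encodes the pore of the fast transient outward current of neurons and heart. The 250 bases before its start (chr7:120272925-120273174, plus strand) held 15 CG and are shown because KCND2 had the largest fall of this role in Y641F.
KCND2: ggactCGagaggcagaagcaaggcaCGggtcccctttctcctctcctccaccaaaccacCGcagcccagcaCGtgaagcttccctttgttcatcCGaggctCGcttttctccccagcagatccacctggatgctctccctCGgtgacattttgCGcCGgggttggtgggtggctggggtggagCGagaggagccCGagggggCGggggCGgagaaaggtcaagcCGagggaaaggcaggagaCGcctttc

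Expression of KCND2 was 2.06, 1.14 and 1.93 CPM in WT, 0.380, 0.315 and 0.426 in Y641F, 0.449, 0.491 and 0.165 in A677G, and 0.731, 1.12 and 0.993 in H689A/F667I. The highest GOF sample was at 0.491 CPM and the lowest sample of the other lines at 0.731. KCND2 had a log2 fold change of -2.17 (SE 0.348, edgeR adjusted p = 3.20e-05) in Y641F and -2.17 (SE 0.348, edgeR adjusted p = 2.91e-05) in A677G, about 4.51-fold lower in both. In H689A/F667I it was -0.84 (SE 0.311, edgeR adjusted p = 0.392), all 3 samples lying below WT.

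KCNV1 (ENSG00000164794.9, chromosome 8, 109963636 to 109975771, minus strand), a silent subunit that alters other pores, was at 0.974, 0.880 and 1.87 CPM in WT, 0.523, 0.289 and 0.615 in Y641F, 0.179, 0.246 and 0.329 in A677G, and 0.839, 1.07 and 1.18 in H689A/F667I. Its GOF samples did not overlap WT or H689A/F667I, whereas the other 2 lines overlapped. Its log2 fold change was -1.35 (SE 0.352, edgeR adjusted p = 0.0111) in Y641F and -2.30 (SE 0.392, edgeR adjusted p = 7.91e-05) in A677G. In Y641F the adjusted p was 0.152 without WT replicate 3 and 0.0699 without Y641F replicate 2.

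KCNA3 (ENSG00000177272.10, chromosome 1, 110653560 to 110674940, minus strand), best known as the main potassium pore of T lymphocytes, was at 2.87, 3.18 and 2.62 CPM in WT, 2.00, 0.525 and 0.969 in Y641F, 1.44, 1.52 and 1.37 in A677G, and 1.57, 1.40 and 1.95 in H689A/F667I. All samples of the 3 mutants were below all WT samples, and Y641F varied most, with replicate 1 far above replicate 2. The log2 fold change was -1.30 (SE 0.273, edgeR adjusted p = 0.00132) in Y641F and -1.0 (SE 0.267, edgeR adjusted p = 0.0119) in A677G, and -0.83 (SE 0.267, edgeR adjusted p = 0.291) in H689A/F667I, which did not pass. In Y641F the log2 fold change was -1.94 without replicate 1 of that line. In A677G the adjusted p was 0.0724 without WT replicate 2 and 0.0501 without A677G replicate 1.

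KCNH2 (ENSG00000055118.17, chromosome 7, 150944961 to 150978321, minus strand), the hERG pore that repolarizes the heart, was at 3.52, 4.04 and 3.02 CPM in WT, 2.02, 1.89 and 2.22 in Y641F, 2.33, 2.43 and 2.69 in A677G, and 5.17, 4.18 and 4.75 in H689A/F667I. H689A/F667I samples were the highest and Y641F samples the lowest, with no overlap between any of the 4 lines. The log2 fold change against WT was -0.79 (SE 0.176, edgeR adjusted p = 0.00269) in Y641F, -0.51 (SE 0.173, edgeR adjusted p = 0.0603) in A677G and 0.41 (SE 0.165, edgeR adjusted p = 0.452) in H689A/F667I, so that only Y641F passed. DESeq2 (adjusted p = 0.0438), the exact test (0.0312) and limma voom (0.0219) called KCNH2 lower in A677G too.

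KCNC4 (ENSG00000116396.15, chromosome 1, 110210314 to 110283100, plus strand) encodes a pore of fast, high-voltage-activated current. It was at 24.7, 24.3 and 24.4 CPM in WT, 22.0, 20.2 and 20.8 in Y641F, 20.9, 17.2 and 20.7 in A677G, and 26.1, 26.7 and 27.1 in H689A/F667I. All GOF samples were below WT and all H689A/F667I samples above it. Against WT the log2 fold change was -0.32 (SE 0.0718, edgeR adjusted p = 0.00235) in A677G and -0.22 (SE 0.0714, edgeR adjusted p = 0.0517) in Y641F. The latter missed the threshold by edgeR's quasi-likelihood test but passed by DESeq2 (adjusted p = 0.0436) and by the exact test (0.0347). Without A677G replicate 2, its lowest sample, the adjusted p in A677G was 0.0532.

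KCNG1 (ENSG00000026559.14, chromosome 20, 51003656 to 51023107, minus strand), another silent subunit, was at 20.6, 24.6 and 23.1 CPM in WT, 18.0, 18.9 and 15.8 in Y641F, 18.3, 14.3 and 16.7 in A677G, and 21.1, 22.3 and 22.8 in H689A/F667I. GOF samples were below all WT and H689A/F667I samples, which overlapped. The fall was small, with -0.37 (SE 0.0844, edgeR adjusted p = 0.00283) in Y641F and -0.47 (SE 0.0849, edgeR adjusted p = 0.000173) in A677G, and the value in H689A/F667I was -0.05 (SE 0.0837, edgeR adjusted p = 0.922).

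Further genes of this role fell in 1 or both GOF lines. KCNS3, a silent subunit, had a log2 fold change of -0.91 (SE 0.267, edgeR adjusted p = 0.0260) in Y641F and -1.16 (SE 0.273, edgeR adjusted p = 0.00382) in A677G. Its level in H689A/F667I was also below WT in every sample, with -0.97 (SE 0.271, edgeR adjusted p = 0.166). In Y641F the adjusted p of KCNS3 was 0.185 without WT replicate 1, 0.137 without WT replicate 2, 0.0712 without Y641F replicate 2 and 0.0698 without Y641F replicate 3, and in A677G it was 0.0641 without A677G replicate 1. KCNQ1, the pore of the slow cardiac delayed rectifier, fell in Y641F with -1.70 (SE 0.441, edgeR adjusted p = 0.0107), but its adjusted p was 0.0847 without Y641F replicate 3, and in A677G the value was -0.55 (SE 0.386, edgeR adjusted p = 0.472). Its counts were few, 24, 22 and 24 in WT, 11, 9 and 4 in Y641F, 24, 20 and 10 in A677G and 20, 35 and 34 in H689A/F667I. KCNQ1 shares 121 bases of exon with the antisense transcript KCNQ1OT1, which is in the table. KCNQ5, a pore of the neuronal M-current, fell slightly in A677G with -0.28 (SE 0.0872, edgeR adjusted p = 0.0394), and its adjusted p was 0.0990 without WT replicate 2, 0.191 without WT replicate 3, 0.120 without A677G replicate 1 and 0.221 without A677G replicate 3. KCNC1 and KCNG3, which differed between GOF and LOF lines as given further on, did not pass against WT in any mutant. The other 7 genes of this role did not pass in any of the 5 comparisons by edgeR's quasi-likelihood test, and limma voom called 1 of them, KCNA6, lower in the GOF lines than in H689A/F667I (log2 fold change -0.74, adjusted p = 0.0331).

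**Figure D3:**
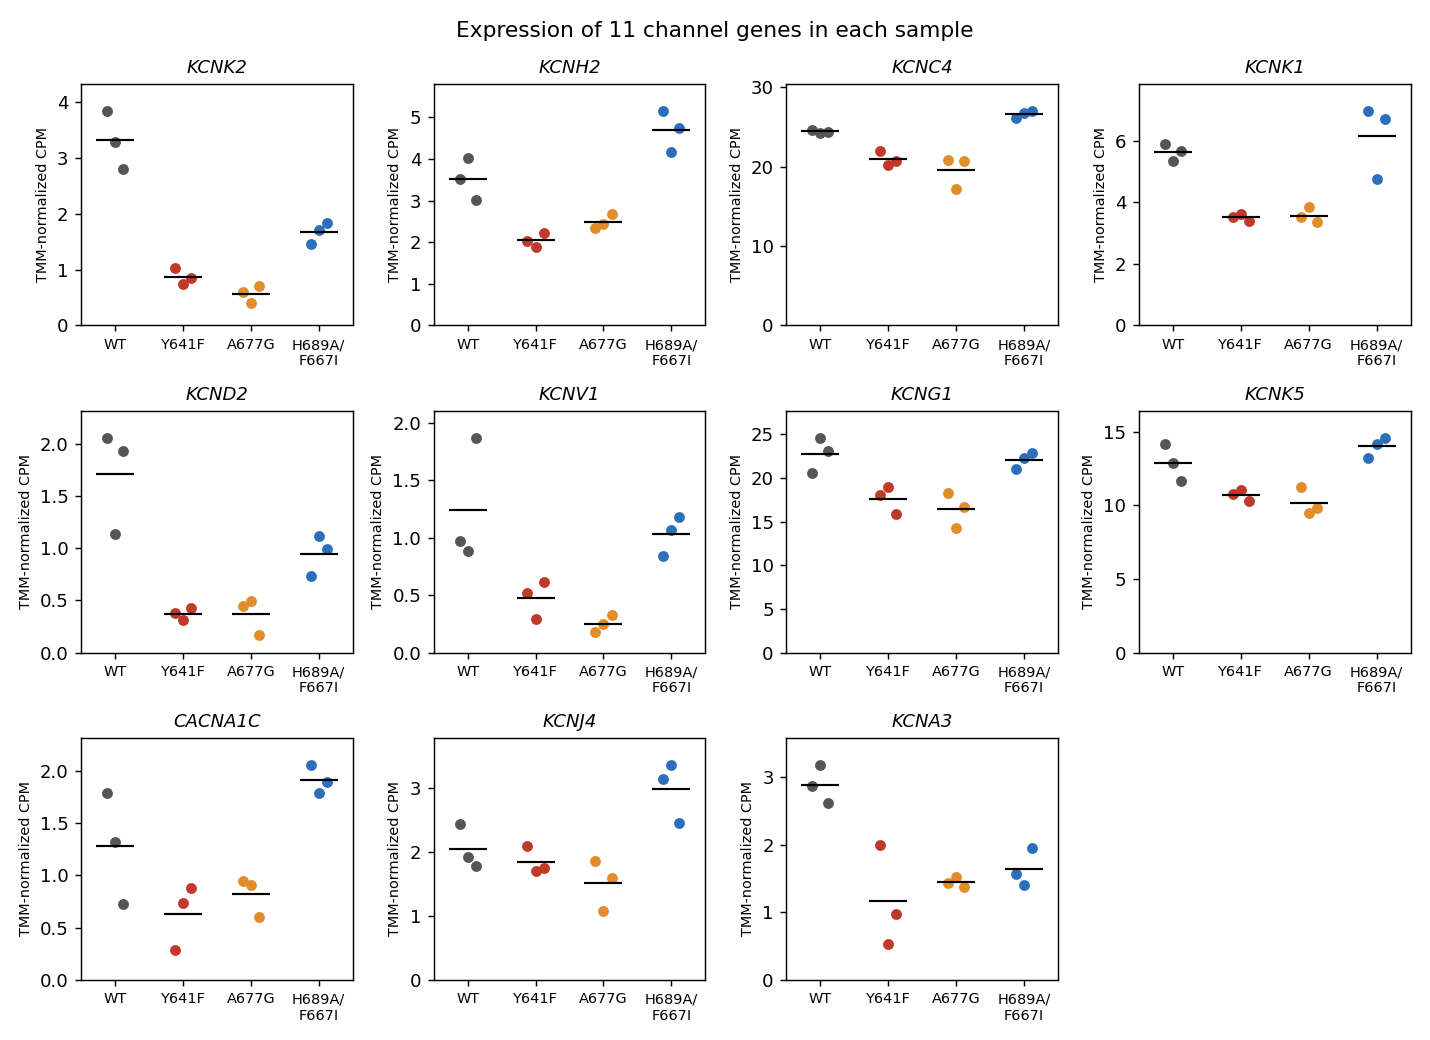
TMM-normalized CPM of 11 channel genes in each of the 12 samples, by line (points, 3 replicates; horizontal bars, means), each panel with its own axis from 0. The GOF lines Y641F and A677G lie below WT and H689A/F667I for KCNK1, KCND2 and KCNG1, while KCNA3 is lower than WT in all 3 mutants and CACNA1C and KCNJ4 are highest in H689A/F667I.

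No inward rectifier passed against WT, with 0 of 8 in Y641F, A677G or H689A/F667I by edgeR's quasi-likelihood test, its exact test, DESeq2 or limma voom. By the quasi-likelihood test 5.59%, 6.48% and 0.161% of all genes were lower and 2.09%, 2.07% and 0.14% higher, so 0 of 8 is near the share of all genes. At an unadjusted p under 0.05, 0, 0 and 1 were lower and 0, 0 and 1 higher in these lines. Of all genes 11.4%, 12.3% and 4.1% were lower at that cut and 7.85%, 8.13% and 4.2% higher. The log2 fold changes of the inward rectifiers ranged from -0.47 to 0.13 in Y641F and from -0.46 to 0.10 in A677G. KCNJ4 (ENSG00000168135.4, chromosome 22, 38426327 to 38455199, minus strand), a strong inward rectifier, was at 2.44, 1.92 and 1.78 CPM in WT, 2.09, 1.71 and 1.75 in Y641F, 1.86, 1.08 and 1.59 in A677G, and 3.14, 3.36 and 2.45 in H689A/F667I. Every H689A/F667I sample was higher than any sample of the other lines, though the lowest of them only just passed the highest WT sample. The log2 fold change was 0.55 (SE 0.215, edgeR adjusted p = 0.434) in H689A/F667I, -0.14 (SE 0.223, edgeR adjusted p = 0.802) in Y641F and -0.43 (SE 0.228, edgeR adjusted p = 0.286) in A677G.

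Of 3 calcium- or sodium-activated potassium pores, KCNN3, of the small-conductance family, was lower in A677G with -0.75 (SE 0.242, edgeR adjusted p = 0.0459). The call rested on all samples together, with adjusted p of 0.0555 without WT replicate 1, 0.199 without WT replicate 2, 0.0920 without WT replicate 3, 0.115 without A677G replicate 1, 0.187 without A677G replicate 2 and 0.0575 without A677G replicate 3, and of 0.0580 with replicate number as a block. Of 8 tested potassium auxiliary subunits, such as the beta subunits KCNAB1 to KCNAB3 and the calcium-binding KCNIP proteins, 0 passed in any of the 5 comparisons by edgeR's quasi-likelihood test. Of all genes 5.59% were lower in Y641F, 6.48% in A677G and 8.75% in the GOF lines against H689A/F667I by that test. At an unadjusted p under 0.05, 0 of the 8 were lower in Y641F and 1 in A677G, against 11.4% and 12.3% of all genes. The only call by another test was KCNIP3, lower in the GOF lines than in H689A/F667I by limma voom (log2 fold change -0.53, adjusted p = 0.0349). KCNMB3, a BK channel beta subunit, shares 3403 bases of exon with PIK3CA on the opposite strand, and the strand setting of the counting is not given in the sources used here.

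Among sodium channel pores, SCN2A and SCN9A did not pass against WT by edgeR's quasi-likelihood test. SCN2A, the pore of excitatory neurons, had a log2 fold change of -0.83 (SE 0.30, edgeR adjusted p = 0.0881) in Y641F and -0.69 (SE 0.297, edgeR adjusted p = 0.165) in A677G, and SCN9A, the pore of peripheral pain neurons, -0.48 (SE 0.166, edgeR adjusted p = 0.0720) and -0.36 (SE 0.165, edgeR adjusted p = 0.201). The exact test called SCN2A (log2 fold change -0.83, adjusted p = 0.0351) and SCN9A (-0.48, 0.0427) lower in Y641F. Limma voom called SCN2A (-0.78, adjusted p = 0.0239) and SCN9A (-0.41, 0.0358) lower in the GOF lines than in H689A/F667I, where the quasi-likelihood test called neither.

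Calcium channel genes of the list did not pass against WT in any line by edgeR's quasi-likelihood test, with 3 pores, 3 alpha2delta, 4 beta and 1 gamma subunit tested. Of all genes 5.59% were lower by that test in Y641F, 6.48% in A677G and 0.161% in H689A/F667I. At an unadjusted p under 0.05, 1 pore, 1 alpha2delta and 1 beta subunit were lower in Y641F, 1 pore was lower in A677G, and 1 alpha2delta subunit was higher in H689A/F667I. Of all genes, 11.4% were lower in Y641F, 12.3% lower in A677G and 4.2% higher in H689A/F667I at that cut. CACNA1C (ENSG00000151067.23, chromosome 12, 1970772 to 2697950, plus strand), the L-type pore of heart and smooth muscle, was at 1.79, 1.32 and 0.724 CPM in WT, 0.285, 0.735 and 0.875 in Y641F, 0.942, 0.909 and 0.603 in A677G, and 2.06, 1.78 and 1.89 in H689A/F667I. WT varied widely and overlapped every other line, while all GOF samples were below all H689A/F667I samples. Against WT, CACNA1C had a log2 fold change of -1.02 (SE 0.340, edgeR adjusted p = 0.0577) in Y641F, -0.64 (SE 0.329, edgeR adjusted p = 0.272) in A677G and 0.57 (SE 0.305, edgeR adjusted p = 0.654) in H689A/F667I. The exact test called CACNA1C lower in Y641F (adjusted p = 0.0196).

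The mean of the GOF lines was compared with the LOF line to ask which genes differ between lines that the study treats as opposite in EZH2 function. This contrast holds no WT sample but shares the mutant samples with the comparisons above. Of the 61 genes 16 were lower in the GOF lines, against 8.75% of all genes, and 2 were higher, against 3.81%. The median log2 fold change was -0.23 and that of all genes 0.00. Without Y641F replicate 1, 21 were lower and 2 higher, against 10.0% and 4.71% of all genes in that fit. In the tandem-pore group 4 of 4 tested genes were lower, in the voltage-gated potassium pores 6 of 18 were lower and 2 higher, and in the alpha2delta group 2 of 3 were lower. In the sodium beta subunits 1 of 4, calcium pores 1 of 3 and inward rectifiers 1 of 8 were lower.

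Among genes with full values above, KCNH2 had the smallest adjusted p in this comparison, with a log2 fold change of -1.06 (SE 0.144, edgeR adjusted p = 1.07e-06), 2.08-fold lower in the GOF lines. KCNC4 followed with -0.39 (SE 0.0610, edgeR adjusted p = 1.11e-05) and KCNK1 with -0.79 (SE 0.124, edgeR adjusted p = 1.31e-05). KCNK2 was -1.24 (SE 0.225, edgeR adjusted p = 0.000117), KCNK5 -0.42 (SE 0.0805, edgeR adjusted p = 0.000229) and CACNA1C -1.40 (SE 0.269, edgeR adjusted p = 0.000249). For each of these 6 genes, no GOF sample reached any H689A/F667I sample. Of all genes, 8.77% had every GOF sample below every H689A/F667I sample. The 6 genes were named by adjusted p in this same comparison, so their separation is no further result. For KCNG1 the value was -0.37 (SE 0.0728, edgeR adjusted p = 0.000288) and for KCNV1 -1.56 (SE 0.317, edgeR adjusted p = 0.000491). KCNJ4 was -0.84 (SE 0.184, edgeR adjusted p = 0.00129) and KCND2 -1.33 (SE 0.310, edgeR adjusted p = 0.00232). KCNA3, lower than WT in all 3 mutants, did not differ past the threshold, with -0.33 (SE 0.246, edgeR adjusted p = 0.460) and a 95% interval of -0.82 to 0.17.

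**Figure D4:**
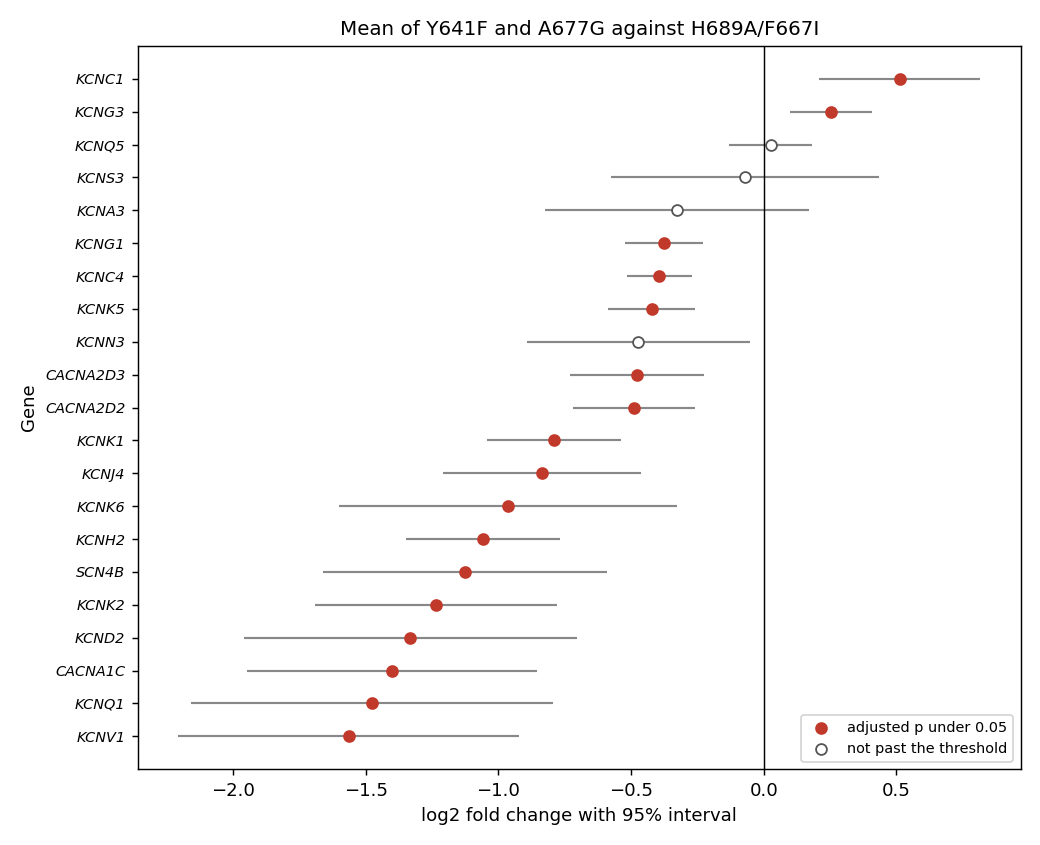
Log2 fold change with 95% interval of 21 channel genes that passed the threshold in at least 1 comparison, for the mean of Y641F and A677G against H689A/F667I. KCNV1 is lowest at -1.56, and KCNC1 at 0.51 and KCNG3 at 0.25 are the filled points to the right of 0.

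Further genes passed in this comparison. KCNQ1 was lower with -1.48 (SE 0.336, edgeR adjusted p = 0.00188). The alpha2delta subunits CACNA2D2 and CACNA2D3, which aid calcium channel trafficking, were lower with -0.49 (SE 0.113, edgeR adjusted p = 0.00220) and -0.48 (SE 0.125, edgeR adjusted p = 0.00734). CACNA2D2 was at 6.03 ± 1.07 CPM in WT, 4.77 ± 0.544 in Y641F, 5.51 ± 0.232 in A677G and 7.20 ± 0.146 in H689A/F667I (SD, n = 3), and CACNA2D3 was at 4.30 ± 0.0410 CPM in WT, 4.23 ± 0.148 in Y641F, 3.61 ± 0.622 in A677G and 5.44 ± 0.708 in H689A/F667I (SD, n = 3). Without H689A/F667I replicate 1 the adjusted p of CACNA2D3 was 0.104. The most abundant alpha2delta gene, CACNA2D1, was 0.04 with a 95% interval of -0.06 to 0.14. SCN4B was lower with -1.12 (SE 0.264, edgeR adjusted p = 0.00257), although 1 H689A/F667I sample lay within the GOF range and its adjusted p was 0.0605 without H689A/F667I replicate 1. KCNK6 was lower with -0.96 (SE 0.314, edgeR adjusted p = 0.0355), and its adjusted p was 0.0744 without Y641F replicate 2, 0.0763 without Y641F replicate 3, 0.0699 without A677G replicate 2, 0.0600 without A677G replicate 3, 0.0576 without H689A/F667I replicate 1, 0.136 without H689A/F667I replicate 2 and 0.122 without H689A/F667I replicate 3.

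The 2 genes that were higher in the GOF lines were KCNC1, a pore of fast-spiking neurons, and KCNG3. KCNC1 was at 3.32 ± 0.233 CPM in WT, 3.74 ± 0.224 in Y641F, 3.34 ± 0.277 in A677G and 2.48 ± 0.374 in H689A/F667I (SD, n = 3), a log2 difference of 0.51 (SE 0.150, edgeR adjusted p = 0.0176). KCNG3 was at 12.9 ± 1.34 CPM in WT, 15.2 ± 0.545 in Y641F, 15.1 ± 0.870 in A677G and 12.7 ± 0.521 in H689A/F667I (SD, n = 3), a log2 difference of 0.25 (SE 0.0761, edgeR adjusted p = 0.0203). Leaving out a replicate raised the adjusted p of KCNC1 to 0.156 without H689A/F667I replicate 1 and 0.0526 without H689A/F667I replicate 2. For KCNG3 it rose to 0.0506 without A677G replicate 1, 0.0984 without H689A/F667I replicate 1 and 0.0948 without H689A/F667I replicate 2. Without H689A/F667I replicate 1, the number of channel genes higher in the GOF lines was thus 0, against 1.88% of all genes in that fit.

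Against WT, H689A/F667I differed in KCNK2 alone by edgeR's quasi-likelihood test, as given above. At an unadjusted p under 0.05, 8 channel genes were lower and 4 higher, where 4.10% and 4.20% of all genes were. The exact test added KCNS3 (log2 fold change -0.97, adjusted p = 0.0475) and limma voom added KCNA3 (-0.88, 0.0394), both lower, as they were in the GOF lines.

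Y641F and A677G were compared with each other to ask whether the GOF substitutions differ. None of the 61 channel genes passed, against 0.014% of all genes lower and 0.0701% higher in Y641F, and DESeq2, limma voom and the exact test of edgeR called 0 as well. At an unadjusted p under 0.05, 1 gene was lower in Y641F and 5 were higher, where 3.21% and 3.69% of all genes were. KCNQ1 was the lower one, with a log2 fold change of -1.15 and a 95% interval of -2.08 to -0.22 (edgeR adjusted p = 0.627). KCNK2 was 0.62 (0.02 to 1.21) and KCNV1 0.94 (0.06 to 1.83). For KCNK1 the interval of the difference was -0.33 to 0.29, for KCNG1 -0.08 to 0.27 and for KCND2, with far fewer counts, -0.90 to 0.90.

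Genes that work with these channels were taken from fixed lists. Of 9 tested channel pores outside the symbol rule, out of 15 listed, 0 passed against WT in any line by edgeR's quasi-likelihood test. At an unadjusted p under 0.05, 2 were lower in A677G, against 12.3% of all genes. In Y641F and H689A/F667I 0 were, against 11.4% and 4.1%. In A677G the exact test called 1, limma voom 2 and DESeq2 0. The calcium pore CACNA1H was at 49.1 ± 1.36 CPM in WT, 46.7 ± 6.73 in Y641F, 43.6 ± 1.10 in A677G and 47.0 ± 0.597 in H689A/F667I (SD, n = 3). For CACNA1G the values were 1.65 ± 0.449, 1.24 ± 0.525, 2.08 ± 0.221 and 1.75 ± 0.368 (SD, n = 3). Of 21 tested partners and regulators, out of 35 listed, 6 fell and 2 rose in Y641F (5.59% and 2.09% of all genes), 6 fell and 0 rose in A677G (6.48% and 2.07%), and 1 fell in H689A/F667I (0.161%). DESeq2 and the exact test of edgeR gave equal counts in the 3 lines, and limma voom called 5, 7 and 1 lower and 1, 0 and 0 higher. In A677G 1 partner was higher at an unadjusted p under 0.05, where 8.13% of all genes were.

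Between the GOF lines and H689A/F667I, 2 of the 9 outside pores and 5 of the 21 partners were lower (8.75% of all genes), and 1 partner was higher (3.81%). The pores were HCN4, of the pacemaker current, with -1.11 (SE 0.319, edgeR adjusted p = 0.0151), and NALCN, a sodium leak pore, with -0.92 (SE 0.312, edgeR adjusted p = 0.0464). The adjusted p of HCN4 was 0.137 without H689A/F667I replicate 2 and 0.0578 without H689A/F667I replicate 3. DESeq2 did not call NALCN, whose adjusted p was 0.110 without Y641F replicate 3, 0.0846 without A677G replicate 2, 0.0868 without A677G replicate 3, 0.204 without H689A/F667I replicate 1, 0.145 without H689A/F667I replicate 2 and 0.0542 without H689A/F667I replicate 3. ABCC9, FGF12, FGF13, STAC and GEM were the lower partners, and RCOR1, a corepressor that works with REST, was higher with 0.17 (SE 0.0473, edgeR adjusted p = 0.0117). Its adjusted p was 0.148 without H689A/F667I replicate 1 and 0.0598 without H689A/F667I replicate 3, and that of FGF12 0.0560 without H689A/F667I replicate 1.

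ABCC9, the sulfonylurea receptor that pairs with KCNJ8, had a log2 fold change of -1.69 (SE 0.474, edgeR adjusted p = 0.0195) in Y641F and -2.25 (SE 0.511, edgeR adjusted p = 0.00266) in A677G, beside 0.03 and -0.11 for KCNJ8. ABCC9 had few counts, 23, 18 and 28 in WT, 10, 8 and 6 in Y641F, 6, 2 and 8 in A677G and 32, 14 and 34 in H689A/F667I. Its mean in WT was 0.644 CPM, where KCNJ8 was at 25.0. With a minimum of 10 counts in every sample ABCC9 was not tested. The intracellular FGF12 and FGF13, which bind sodium channel tails, were -0.80 (SE 0.221, edgeR adjusted p = 0.0178) and -0.52 (SE 0.0898, edgeR adjusted p = 0.000116) in Y641F, and -0.77 (SE 0.220, edgeR adjusted p = 0.0213) and -0.41 (SE 0.0893, edgeR adjusted p = 0.00158) in A677G. GEM, a small GTPase that inhibits calcium channels, was -0.82 (SE 0.213, edgeR adjusted p = 0.0111) and -0.85 (SE 0.213, edgeR adjusted p = 0.00671), and the calcium channel adaptor STAC was -1.59 (SE 0.227, edgeR adjusted p = 4.74e-06) and -1.40 (SE 0.223, edgeR adjusted p = 2.72e-05). FAM155B, a partner of NALCN, was -0.41 (SE 0.0724, edgeR adjusted p = 0.000133), -0.35 (SE 0.0722, edgeR adjusted p = 0.00101) and, in H689A/F667I, -0.35 (SE 0.0729, edgeR adjusted p = 0.0155).

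Genes higher in Y641F were ANK2, which anchors channels to the cytoskeleton, with 0.24 (SE 0.0656, edgeR adjusted p = 0.0161), and REST, a repressor of neuronal genes that include many channels, with 0.16 (SE 0.0474, edgeR adjusted p = 0.0328). Both calls were lost when certain single samples were left out. With 1 replicate left out, the adjusted p of ANK2 was 0.103 without WT replicate 2, 0.0628 without WT replicate 3 and 0.203 without Y641F replicate 1. For REST it was 0.207 without WT replicate 2, 0.0780 without WT replicate 3, 0.0616 without Y641F replicate 1 and 0.104 without Y641F replicate 3. REST was also not called with upper-quartile factors (adjusted p = 0.0559), with only the compared lines (0.0573) or with the GC trend removed (0.0792), and ANK2 not by limma voom (0.0559).

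Among the partner genes that fell, the call for ABCC9 in Y641F had an adjusted p of 0.0540 without WT replicate 1, 0.104 without WT replicate 3 and 0.0928 without Y641F replicate 3, and of 0.0594 by limma voom. For FGF12 the adjusted p was 0.0727 without WT replicate 3 and 0.0585 without Y641F replicate 3 in Y641F and 0.0523 without WT replicate 2, 0.0851 without WT replicate 3, 0.0952 without A677G replicate 2 and 0.0666 without A677G replicate 3 in A677G. For GEM it was 0.0791 without WT replicate 3 and 0.10 without Y641F replicate 3 in Y641F and 0.0574 without WT replicate 3 in A677G, and for FAM155B in H689A/F667I 0.248 without WT replicate 1, 0.0579 without WT replicate 3, 0.143 without H689A/F667I replicate 1 and 0.0767 without H689A/F667I replicate 2. The calls for FGF13 and STAC passed in each fit that left out a replicate.

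RefSeq windows existed for 46 of the 64 channel genes. In the 250 bases before a start, letters CG were searched on the plus strand of the gene (CG reads the same on both strands). Of 35116 windows of all genes, tested or not, 93.9% held at least 1, with a median of 11. As many CG as before KCNK1 were found in 12.4% of windows, as many as before KCND2 in 42.9% and as many as before the downstream KCNK2 start in 56.3%. Taking the richest window per gene, the median was 29.5 CG (8 to 38) in 10 of the 15 genes that fell in Y641F or A677G. It was 23.5 (0 to 51) in 34 other tested channel genes. Over all 27305 genes with a window it was 12, but these include genes outside the 14263 tested, so 12 is not a median of expressed genes. This is a description of the letters before each start, with no test, and KCNK2 was the lowest of the 10.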

How the data were processed

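Libraries were made with the TruSeq Stranded mRNA kit. Per the labels and the study's methods, reads were trimmed with Trim Galore 0.6.5, aligned to GRCh38 with STAR 2.7.9a and quantified with salmon 1.2.0, and lines were compared with edgeR 3.16. For the 12 samples the authors deposited 1 table of raw counts, with gene symbols as rows. The step from salmon to whole counts and the filter on genes are not given in the sources used here, so reads shared by near-identical or overlapping genes may be divided in ways that cannot be seen.

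These counts were fitted with edgeR 4.0.16 in R 4.3.3 (TMM, quasi-likelihood test, all 12 samples in 1 fit with 1 coefficient per line, in place of the study's exact test). Left out were 175 genes at 0 in all replicates of A677G or H689A/F667I, and filterByExpr dropped 0 of the other 14263. P-values were adjusted by Benjamini-Hochberg over all 14263, and an adjusted p under 0.05 counted as changed. Intervals are 95%. Alternatives were edgeR's exact test, DESeq2 1.42.0, limma 3.58.1 voom with quality weights, upper-quartile factors, library totals, a minimum of 10 counts, the zeros kept, only the compared lines, a log2 fold change of at least 1, GC trend removal, the replicate number as a block and each replicate left out.

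Symbols were matched to GENCODE on GRCh38: 13272 by name, 809 by RefSeq synonym, 357 not. All 64 channel genes matched by name. Promoter windows are RefSeq, GRCh38.p14. The main quasi-likelihood fit was checked on simulated counts in which 200 genes differed in Y641F. Those genes were drawn without the low-count genes and given large changes. The check therefore does not cover channel genes with few counts or small differences.

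Named are all channel genes past the threshold in at least 1 comparison (23, the 12 with the smallest adjusted p with full values), the highest per length of each role, the 3 left out, EZH2, and partner genes past the threshold in Y641F or A677G. Of these, 2 channel genes, and 1 marker, are not reported here and are left out of the figures, though the counts include them. Others named were chosen after their values were seen. Channel genes, lists and tests were chosen with earlier results of these data known. No replicate block was used, since the labels do not pair samples by number. Replicates differed by more than sampling noise (chi-square per degree of freedom 3.33 to 14.9). The chromatin, protein and metabolite measurements were not analysed here.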

Additional observations from a re-analysis of the deposited data

Results flagged for a closer look

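The effects of the GOF lines (mean of Y641F and A677G) and of the LOF line H689A/F667I against WT differed, by a direct test of the difference in edgeR's quasi-likelihood model, for 18 of 61 channel genes, of which 17 are given. WT cancels in that difference, so it is the comparison of GOF and LOF lines given above and no separate result. Lower in the GOF lines, as log2 differences, were KCNV1 at -1.56, KCNQ1 at -1.48, CACNA1C at -1.40, KCND2 at -1.33, KCNK2 at -1.24, SCN4B at -1.12 and KCNH2 at -1.06. Smaller differences were found for KCNK6 at -0.96, KCNJ4 at -0.84, KCNK1 at -0.79, CACNA2D2 at -0.49, CACNA2D3 at -0.48, KCNK5 at -0.42, KCNC4 at -0.39 and KCNG1 at -0.37. Higher in the GOF lines were KCNC1 at 0.51 and KCNG3 at 0.25. Background for this comparison is given in the report, 8.75% of all genes lower and 3.81% higher.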

How the results depend on the processing

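Between Y641F and WT, 10 to 15 channel genes were lower by the other tests, scalings and sets of samples. With a minimum of 10 counts in every sample 9 of 55 were, and between A677G and WT 10 to 15 were lower. Of all genes, 4.66% to 6.59% were lower in Y641F in these settings and 6.42% to 8.6% in A677G. The count of 16 lower in the GOF lines against H689A/F667I ran from 14 to 20 in these settings, among which the exact test takes no mean of 2 lines and was not run. Of all genes 7.99% to 9.93% were lower there. Where the absolute log2 fold change also had to reach 1, 6 genes were lower in Y641F, 5 in A677G, 0 in H689A/F667I and, in the GOF lines against H689A/F667I, 7 lower and 0 higher. At that cut 1.17%, 1.42%, 0.028% and 1.43% of all genes were lower, and 0.0491% higher in the last comparison. The 1 lower gene of H689A/F667I, KCNK2, became 0 with library totals, with the replicate block and with the GC trend removed and the block, and 2 with the exact test, the zeros kept, only the compared lines or limma voom. In the settings with 2, in that order, 0.316%, 0.963%, 0.337% and 0.386% of all genes were lower. With the zeros kept, 3 channel genes were higher in Y641F than in A677G, against 1.13% of all genes, and these are the 3 at 0 in A677G. Over all genes, 23 lower and 20 higher in H689A/F667I became 20 and 11 with library totals, 45 and 31 with the exact test, 139 and 30 with the zeros kept, 48 and 38 with only the compared lines and 55 and 44 with limma voom. In A677G 924 and 295 became 1026 and 191 with upper-quartile factors, 1121 and 497 with only the compared lines and 1227 and 578 with limma voom, and in Y641F 797 and 298 became 664 and 179 with only the compared lines. Without 1 replicate, the counts over all genes ranged from 4 to 20 lower and 7 to 16 higher in H689A/F667I, from 568 to 943 and 135 to 354 in Y641F, from 682 to 812 and 142 to 230 in A677G, from 935 to 1433 lower in the GOF lines against H689A/F667I, with 268 higher at the fewest, and from 1 to 28 and 6 to 29 in Y641F against A677G. With a replicate left out, the channel genes lower ranged from 9 to 12 in Y641F, 7 to 11 in A677G, 0 to 0 in H689A/F667I and 14 to 21 in the GOF lines against H689A/F667I, and those higher from 0 to 1, 0 to 1, 0 to 0 and 0 to 2. Of all genes 3.98% to 6.61%, 4.78% to 5.69%, 0.028% to 0.14% and 6.56% to 10% were lower in these fits. The shares higher were 0.947% to 2.48%, 0.996% to 1.61%, 0.0491% to 0.112% and 1.88% to 4.75%.

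With the replicate block, 11 channel genes were lower in Y641F, 11 in A677G, 0 in H689A/F667I and 16 in the GOF lines against H689A/F667I, with 2 higher. Of all genes 5.67%, 6.54%, 0.161% and 8.78% were lower with the block, and 3.89% higher in the last comparison. Samples with the same number were not paired by the labels. Of 18 same-number pairs, with r from -0.193 to 0.211, 4 correlated best with their own number and 2 were over 0.1. The 4 include all 3 pairs of WT with Y641F (r = 0.0943, 0.135 and 0.211), a hint of pairing in that comparison from the data and not from the design. Among single genes no direction reversed for a called value. Many members have under 50 counts a sample, where only large differences can be detected.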
